A study of Mus musculus with 12 samples.

Results

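The difference between 2 stages of meiosis in how Rnaseh1 knock-out-labelled cells departed from wild type was measured by RNA sequencing in all 12 of the study's 12 libraries. For each gene this interaction is the knock-out minus wild-type difference at pachytene minus the same difference at leptotene/zygotene (LZ), on log2(value + 1). It was computed across all genes of the table and tested in 15400 of 23235, those that reached 1 in no fewer than 3 libraries. The libraries came from spermatocytes of C57BL/6 mice sorted by fluorescence. Each stage had 3 wild-type (WT) and 3 knock-out libraries. The age of the mice, the deleted allele, any Cre driver and whether animals were pooled are not given in the sources used here, nor is it said that replicates came from separate animals, so p-values measure only the spread between these libraries. Because Rnaseh1 itself was not lower in the knock-out libraries at pachytene, they are called KO-labelled throughout.

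RNase H1 is a nuclease that cuts RNA paired with DNA. Such hybrids form as R-loops at transcribed genes and as primers during replication of mitochondrial DNA. Programmed DNA breaks are made in leptotene, and homologs align during zygotene. By pachytene synapsis is complete, the X and Y chromosomes are transcriptionally silenced as a unit, and the transcription factor A-MYB switches on a large programme of genes for late meiosis, spermatids and the sperm tail.

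A value is an FPKM that the authors scaled by spike-in RNA (spike-in scale). The same calculation was made on each value as its share of the library's column sum, in parts per 1000000 (share scale). Read counts were not used here, so the depth behind the values is unknown. On the spike-in scale the column sum was 885260, 803990 and 609830 in the WT LZ libraries and 430370, 477240 and 512470 in the KO-labelled LZ libraries. It was 3320000, 4063300 and 4183700 in WT pachytene and 6702200, 5783400 and 4811600 in KO-labelled pachytene. The genotypes thus did not overlap at either stage, and KO-labelled libraries were the lower at LZ and the higher at pachytene. The interaction of the log2 sum was 1.256 (exact two-sided permutation test exchanging genotypes within stages, p = 0.005, the smallest its 400 arrangements can give). That test asks whether the genotypes differ at either stage, with the interaction as its statistic. In these bulk samples, fewer cells of a type and less RNA per cell cannot be told apart, and neither can more RNA per cell and a different number of cells.

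**Figure D1:**
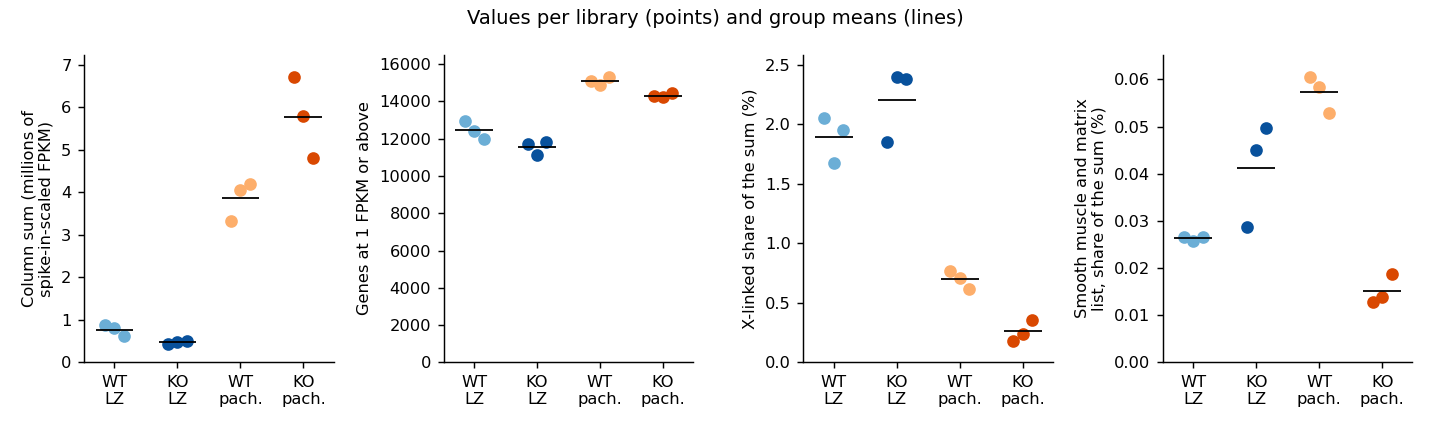
Values of each library (points, replicates 1 to 3 from left to right) and group means (lines) for the column sum of spike-in-scaled FPKM (axis in units of 1000000), the number of genes at a value of at least 1, the X-linked share of the sum and the share of the smooth muscle and matrix list; KO stands for KO-labelled. The 3 KO-labelled pachytene libraries had the highest sums, from 4811600 to 6702200, and the lowest X-linked shares, from 0.183% to 0.359%.

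By share of the sum, the stage labels matched the leptotene and zygotene list and the pachytene and A-MYB list. The leptotene and zygotene list took 0.779% to 0.978% of the sum in WT LZ and 0.872% to 1.1% in KO-labelled LZ libraries, against 0.404% to 0.423% and 0.268% to 0.382% at pachytene. The pachytene and A-MYB list took 1.42% to 1.84% and 1.11% to 1.47% at LZ, against 2.9% to 3.04% and 3.64% to 4.19%. Correlations of log2 values between replicates were 0.967 to 0.975 in 3 groups and 0.923 to 0.952 among KO-labelled LZ libraries. The KO-labelled pachytene libraries were not alike. On the spike-in scale replicate 1 was the highest of the 3 in 4498 of the 5381 genes with a higher interaction described next, and replicate 3 the lowest in 4834. Their column sums had the same order, with replicate 1 the highest and replicate 3 the lowest. The same was not counted over all genes tested. Among the 861 genes with a lower interaction on the share scale, replicate 1 was the lowest of the 3 in 606 and replicate 3 the highest in 640.

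On the spike-in scale the interaction was mostly positive, which means that the KO-labelled minus WT difference was more positive at pachytene than at LZ. Of 15400 genes, 5919 were called by limma at a Benjamini-Hochberg adjusted p under 0.05 (38.4%), 5381 of them higher (34.9%) and 538 lower (3.49%). The median interaction over all genes was 0.72. The direction turned on the share scale: 952 genes were called (6.18%), 91 higher (0.591%) and 861 lower (5.59%), and the median was -0.22. Dividing each library by its median ratio to all libraries gave 365 higher and 671 lower with a median of -0.0030, and quantile normalisation gave 114 and 262 with a median of 0.051. No gene was called in opposite directions on the spike-in and share scales. On both scales 89 genes were higher and 348 were lower, which are 89 of the 91 higher and 348 of the 861 lower genes of the share scale. Counts on the share scale depended on single libraries: without KO-labelled pachytene replicate 2 they were 8 higher and 351 lower, and without KO-labelled LZ replicate 1 they were 494 and 1317.

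The higher and lower genes were made up differently. Of the 5381 higher genes on the spike-in scale, 5293 had KO-labelled means below WT at LZ and above WT at pachytene. Of the 538 lower genes, 285 had KO-labelled means below WT at both stages and 245 had them above WT at LZ and below at pachytene. The pachytene difference was the larger of the 2 parts in 504 of these 538. The pattern on the share scale split the other way for the higher genes: the LZ difference was the larger part in 82 of 91, and the pachytene difference was the larger part in 625 of the 861 lower genes. In 2296 genes (14.9%) the genotypes did not overlap at either stage on the spike-in scale, with KO-labelled libraries lower at LZ and higher at pachytene, and in 31 (0.201%) the reverse held. The share scale gave 65 (0.422%) and 451 (2.93%). The spike-in median depended on the level of a gene: in 5 bins of 3080 genes ordered by mean level it was -0.063, 0.24, 0.77, 1.04 and 1.26 from the lowest to the highest, while the share-scale medians were -0.17, -0.41, -0.34, -0.19 and -0.059. Addition of 1 before the logarithm understates the changes of genes at low values.

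**Figure D2:**
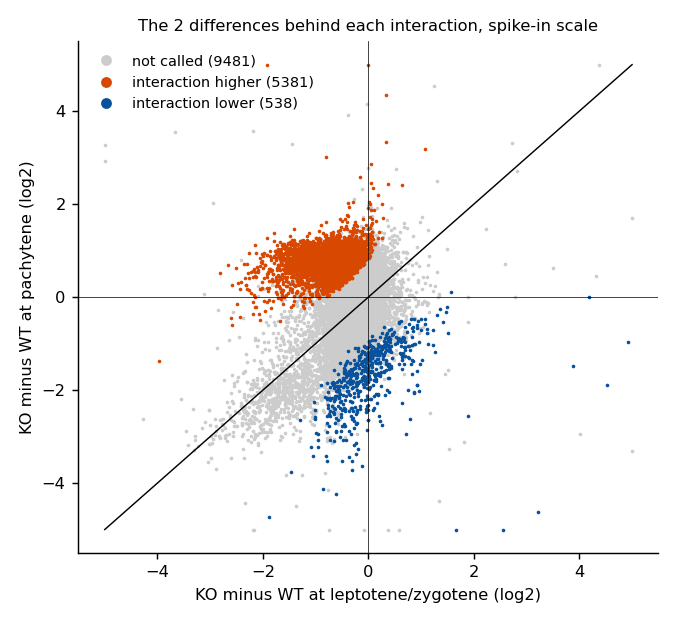
KO-labelled minus WT difference at LZ (horizontal axis, log2) against that at pachytene (vertical axis, log2) for the 15400 genes tested on the spike-in scale, with values beyond 5 drawn at 5; the diagonal marks an interaction of 0. The 5381 genes called higher lie above the diagonal, 5293 of them on the side of a lower level at LZ and a higher one at pachytene, and the 538 called lower lie below it.

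Rnaseh1, the gene named by the labels, was at 16.1, 20.5 and 16.8 in WT LZ libraries and 11, 18.3 and 14.8 in KO-labelled LZ libraries. At pachytene it was at 52.7, 51.7 and 56.8 in WT and 77.3, 68.9 and 94.3 in KO-labelled libraries. The genotypes overlapped at LZ, and the KO-labelled libraries were all higher at pachytene. Its interaction was 0.84 (SE 0.32, adjusted p = 0.0541) on the spike-in scale and -0.38 (SE 0.34, adjusted p = 0.55) on the share scale, and neither was called. Relative to the median of all genes these are 0.12 and -0.15, and the spike-in value turned to -0.070 under median-ratio scaling and -0.14 under quantile normalisation. The labels do not say which exons are deleted, so a level over the whole gene cannot tell whether its transcript was altered. Why Rnaseh1 was not lower in KO-labelled pachytene libraries was not tested.

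Crisp2, a secreted protein of the acrosome and sperm tail made from pachytene onwards, was at 542, 573 and 401 in WT LZ libraries and at 226, 203 and 165 in KO-labelled ones. At pachytene it reached 5101, 3991 and 5487 in WT and 11931, 10025 and 7713 in KO-labelled libraries. The genotypes did not overlap at either stage and were ordered in opposite ways. Its interaction was 2.36 (SE 0.32, adjusted p = 0.00493) on the spike-in scale and 1.1 (SE 0.26, adjusted p = 0.033) on the share scale, where the call was lost in 7 of the 12 fits that left out 1 library each (adjusted p from 0.00972 to 0.0931). Its spike-in call was lost under quantile normalisation (1.15, adjusted p = 0.0586). Mylk3, a myosin light chain kinase known from heart muscle, was near the floor at LZ. It was at 0.562 or below in all 9 libraries other than KO-labelled pachytene, where it was at 4.95, 8.35 and 7.99. The interaction of 2.73 (SE 0.37, adjusted p = 0.00493) on the spike-in scale thus came from pachytene. Its share-scale value was 1.15 (SE 0.33, adjusted p = 0.0651), not called.

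Bgn, an X-linked gene for the matrix proteoglycan biglycan, and Cnn1, the smooth muscle protein calponin, had lower interactions on both scales. Bgn was at 0.0861, 0.424 and 0 in WT LZ and 0.155, 0.771 and 0.579 in KO-labelled LZ libraries, near the floor of the table. At pachytene it was at 38.9, 29.6 and 32 in WT and 7.17, 7.64 and 8.13 in KO-labelled libraries, which did not overlap. Its interaction was -2.34 (SE 0.36, adjusted p = 0.00493) on the spike-in scale and -2.77 (SE 0.40, adjusted p = 0.0074) on the share scale. Cnn1 was at 0.405 or below in every LZ library, at 3.25, 7.18 and 6.93 in WT pachytene and at 0.549, 0 and 0.262 in KO-labelled pachytene, again without overlap. Its interaction was -2.49 (SE 0.41, adjusted p = 0.00493) on the spike-in scale. The share-scale value of -1.48 (SE 0.31, adjusted p = 0.0194) lost its call without KO-labelled pachytene replicate 1 or replicate 2 (adjusted p up to 0.0535).

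Among named genes at a mean of at least 5 in their highest group, the 8 highest interactions on the spike-in scale ran from 3.0 to 4.02. Serpina1e, of the alpha-1 antitrypsin family of protease inhibitors, was listed at 0 or below 1 in all 9 other libraries and at 26.4, 18.6 and 19.2 in KO-labelled pachytene, an interaction of 4.02 (SE 0.35, adjusted p = 0.00018). Its family has near-identical copies between which fragments can be split, so its level is uncertain; Serpina1d, another copy, had an interaction of -0.66 and was not called. The other 7 genes had KO-labelled means below WT at LZ and above WT at pachytene. Ccna1, which encodes cyclin A1 and is needed to enter the meiotic divisions, was at 85.4, 117 and 48.6 and 22.6, 13 and 4.99 in WT and KO-labelled LZ libraries. At pachytene it was at 203, 213 and 379.5 in WT and at 744, 476 and 197 in KO-labelled libraries, so that the genotypes were apart at LZ and overlapped at pachytene. Its interaction of 3.36 (SE 0.75, adjusted p = 0.00725) was made up of -2.67 at LZ and 0.69 at pachytene, with the sign of the LZ part reversed. Replicate 3 of KO-labelled pachytene was the lowest of its group for Ccna1 and lay below all 3 WT libraries.

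The same shape was seen in the other 6. Tcte1, part of the dynein regulatory complex of the sperm tail, was at 2.77, 0.168 and 0.534 against 9.08, 7.79 and 5.63 at LZ and at 42, 34.4 and 16.3 against 6.73, 14.5 and 20.6 at pachytene, for KO-labelled against WT, an interaction of 3.26 (SE 0.68, adjusted p = 0.0061). Pdzd9, a PDZ domain protein, was at 16.7, 13.7 and 10.5 against 81.5, 106 and 61 at LZ and 1110, 759 and 406 against 342, 472 and 583 at pachytene, an interaction of 3.13 (SE 0.48, adjusted p = 0.00493). Both were apart at LZ and overlapped at pachytene. Rfx8, of the RFX family of transcription factors, had an interaction of 3.09 (SE 0.57, adjusted p = 0.00507). Aqp9, a channel for water and glycerol, had 3.0 (SE 0.60, adjusted p = 0.00546) and was the only 1 of these 7 whose genotypes did not overlap at either stage. Mxra8, a cell surface adhesion protein, was at 251, 201 and 84.2 in KO-labelled and 67.5, 61.4 and 139 in WT pachytene libraries, an interaction of 3.21 (SE 0.85, adjusted p = 0.0128). Rhcg, an ammonia transporter, had an interaction of 3.09 (SE 0.72, adjusted p = 0.00836). Ccna1, Tcte1, Mxra8, Rhcg and Aqp9 were not called on the share scale (adjusted p from 0.0672 to 0.202), while Serpina1e, Pdzd9 and Rfx8 were, at 1.62, 1.92 and 1.93. The calls of these 8 genes on the spike-in scale were kept in each of the 12 fits that left out 1 library, but not under other scalings. Those of Ccna1, Mxra8 and Rhcg were lost under median-ratio scaling (adjusted p = 0.0691, 0.143 and 0.0546) and quantile normalisation (adjusted p = 0.112, 0.18 and 0.0612), and that of Aqp9 under quantile normalisation (adjusted p = 0.0755).

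The 100 bases before the start of Ccna1 and Rhcg, 2 of the genes with the highest interactions, are shown as examples of promoters of genes that moved together; they are from RefSeq on GRCm38.p6, a later build than the authors' mm9. Both are given 5′ to 3′ on the minus strand, at chr3:55055056-55055155 and chr7:79617658-79617757.
Ccna1: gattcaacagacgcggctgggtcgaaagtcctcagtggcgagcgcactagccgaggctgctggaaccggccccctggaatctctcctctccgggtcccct
Rhcg: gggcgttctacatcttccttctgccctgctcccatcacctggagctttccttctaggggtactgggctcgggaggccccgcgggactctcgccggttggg
Neither window held any of the 7 motifs searched on both strands. These were the CRE TGACGTCA and the shorter TGACG within it, the MYB core in the spellings CAACTG and CAACGG, the GC box GGGCGG, the E box CACGTG and the TATA box TATAAA. Other spellings of the MYB core, such as AACAG and AACCG, were not among the motifs searched, but can be read in both windows. Ccna1 holds AACAG and AACCG, and Rhcg holds CGGTT, which is AACCG on the other strand. How many of all windows hold these spellings was not counted. Of 32851 RefSeq promoter windows of this length, 4.47% held CAACTG, 1.87% held CAACGG and 10.5% held TGACG. A promoter entry matched 12174 of the 15400 genes tested (79.1%), and motifs were not compared between called genes and the rest.

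Germ cell lists separated by stage. The pachytene and A-MYB list had a median interaction of 1.9 on the spike-in scale against 0.72 for all genes, and 30 of its 36 members were higher and 2 lower. Its median stayed positive on the share scale (0.65), under median-ratio scaling (0.97) and under quantile normalisation (0.47), with 3, 6 and 0 members called higher. Acrbp, which binds proacrosin in the acrosome, was at 109, 76 and 62.1 in KO-labelled and 279, 403 and 231 in WT LZ libraries, and at 4504, 3359.7 and 2061 and 1163, 1965 and 2188 at pachytene. It was apart between genotypes at LZ, overlapped at pachytene, and had an interaction of 2.75 (SE 0.47, adjusted p = 0.00493). The list of axoneme and flagellum genes, which build the sperm tail, had a median of 1.69 and 33 higher and 0 lower of 42, and 0.51 on the share scale with 1 higher. The axonemal dynein chain gene Dnaic2 had an interaction of 2.78 (SE 0.70, adjusted p = 0.0105) and the tektin Tekt3 of 2.73 (SE 0.53, adjusted p = 0.00523), after Tcte1 the largest in that list. The calls of Dnaic2 and Tekt3 were lost under median-ratio scaling and quantile normalisation.

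Retrogenes active at pachytene, several of which replace silenced X-linked genes, had a median of 1.32, with 11 of 16 higher and 0 lower. Over all genes 34.9% were higher, against 68.75% of these. Their share-scale median was 0.067 with 0 called, and under median-ratio scaling 0.39 with 2 higher. Pabpc2 and Pabpc6, testis poly(A)-binding proteins with near-identical relatives whose fragments may be split, had 2.64 and 2.49. Ppp3r2, the testis calcineurin B subunit, was at 3936, 2749 and 1815 in KO-labelled against 1081, 1254 and 1485 in WT pachytene libraries and at 82.6, 75.7 and 50.8 against 173, 224 and 122 at LZ. Its genotypes did not overlap at either stage, with an interaction of 2.38 (SE 0.43, adjusted p = 0.00493).

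Leptotene and zygotene genes lay well below the median of all genes. On the spike-in scale their median was 0.016, with 4 higher and 2 lower of 27. It was -0.90 on the share scale, where 10 were lower, -0.81 under median-ratio scaling and -0.80 under quantile normalisation. Higher on the spike-in scale were 14.8%, against 34.9% of all genes, and lower on the share scale 37%, against 5.59%. Rec8, a meiotic cohesin subunit, was at 2.91, 2.11 and 5.3 in KO-labelled and 16, 10.9 and 16.1 in WT pachytene libraries and overlapped between genotypes at LZ. Its interaction was -1.44 (SE 0.51, adjusted p = 0.041), and the call was lost in 8 of the 12 fits without 1 library (adjusted p from 0.0182 to 0.1). Stag3, another meiotic cohesin subunit, went the other way on the spike-in scale at 1.18 (SE 0.36, adjusted p = 0.0226), lost in 6 of 12 such fits (adjusted p from 0.0119 to 0.061). It turned to -0.12 under quantile normalisation. The 3 genes of this list named by the rule were these 2 and the X-linked Taf7l. Spermatogonial genes had lower interactions on every scaling, with medians of -1.08 on the spike-in scale, -1.12 on the share scale, -1.37 under median-ratio scaling and -1.3 under quantile normalisation. Of 19 members, 9 were lower (47.4%, against 3.49% of all genes) and 0 higher on the spike-in scale.

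Dmrt1, a transcription factor of spermatogonia and Sertoli cells, was at 2.15, 6.8 and 12.3 in KO-labelled against 67.9, 41.1 and 46.6 in WT pachytene libraries, without overlap, and its LZ libraries overlapped. Its interaction was -2.3 (SE 0.63, adjusted p = 0.0146). Nanos3, an RNA-binding protein of early germ cells, was at 5.58, 7.41 and 8.88 against 37.3, 59.8 and 25.5 at pachytene in the same order, with an interaction of -2.92 (SE 0.59, adjusted p = 0.00548). Round spermatid genes had a median of -0.045 on the spike-in scale with 10 higher and 0 lower of 48, and -1.03 on the share scale. Their 20.8% called higher was below the 34.9% of all genes, and their spike-in median was below the 0.72 of all genes. This list was below WT at both stages: the median KO-labelled minus WT difference was -1.89 at LZ and -2.19 at pachytene. The protamine gene Prm1, which packs sperm DNA, was at 15197, 8211 and 6832 in WT and 2581, 385 and 918 in KO-labelled LZ libraries. The list took 2.98% to 4.63% of the sum in WT LZ, 0.484% to 2.17% in KO-labelled LZ, 1.71% to 2.27% in WT pachytene and 0.771% to 0.941% in KO-labelled pachytene, with at most 1 member at 0 in any library, and its part in the other interactions was not tested. The members with higher interactions included Zpbp2 (2.66 (SE 0.46, adjusted p = 0.00493)), Tex22 (2.62) and Spesp1 (2.1), genes of the acrosome and sperm.

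X-linked genes stood below autosomal genes in the interaction. The X chromosome had 612 tested genes with a median of -0.80 on the spike-in scale, against 0.76 for autosomal genes and 0.62 to 0.84 for the 19 single autosomes. The difference of -1.56 was -0.90 on the share scale, where the medians were -1.10 and -0.20, -1.18 under median-ratio scaling and -1.04 under quantile normalisation. On the spike-in scale 143 X-linked genes were lower and 5 higher, and X-linked genes made up 26.6% of the lower genes against 3.97% of those tested. The share scale gave 188 lower and 2 higher, and 21.8% of its lower genes. Of the whole sum, X-linked genes took 2.06, 1.68 and 1.95% in WT LZ and 1.85, 2.4 and 2.38% in KO-labelled LZ libraries, which overlapped. At pachytene they took 0.769, 0.709 and 0.617% in WT and 0.183, 0.24 and 0.359% in KO-labelled libraries, which did not.

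**Figure D3:**
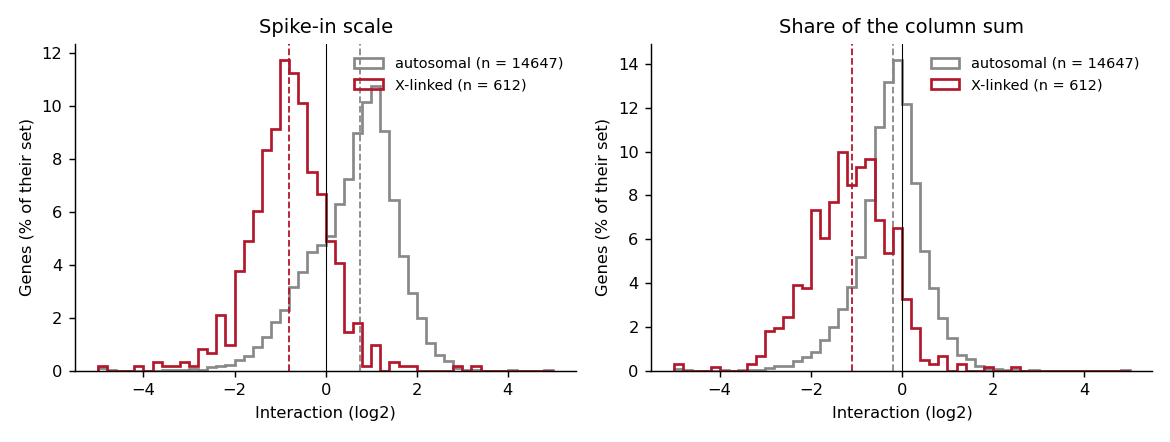
Distribution of the interaction (horizontal axis, log2, values beyond 5 drawn at 5) as a percentage of the 612 X-linked and the 14647 autosomal genes tested, on the spike-in scale (left) and the share scale (right), with medians as dashed lines. The X-linked median lies at -0.80 against 0.76 on the left and at -1.10 against -0.20 on the right.

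The list of X-linked genes that report on silencing had a median of -0.98 on the spike-in and -1.69 on the share scale, with 13 and 19 of 30 lower and 0 higher. Lower were thus 43.3% and 63.3% of it, against 3.49% and 5.59% of all genes. Tex11, an X-linked gene needed for crossing over, was at 57.4, 35.9 and 49.7 in WT LZ and 28.8, 30.7 and 37.8 in KO-labelled LZ libraries, which overlapped. At pachytene it was at 31, 23.5 and 33.4 in WT and 0.321, 5.85 and 6.6 in KO-labelled libraries, which did not. Its interaction was -2.35 (SE 0.71, adjusted p = 0.0221), called in all but the fit without WT LZ replicate 2 (adjusted p from 0.00801 to 0.0544 over the 12). Tktl1, a transketolase-like enzyme, had -2.47 (SE 0.76, adjusted p = 0.0228), not called without WT LZ replicate 1 (adjusted p up to 0.0526). Nxf2, an RNA export factor of germ cells, was at 1.81, 29.8 and 31 against 115, 101 and 138 at pachytene for KO-labelled against WT. Its interaction of -2.65 (SE 0.94, adjusted p = 0.0408) was not called in 8 of the 12 fits without 1 library (adjusted p from 0.0138 to 0.0743). Taf7l, a germ cell TFIID subunit, was at 4.52, 26.1 and 40.5 against 121, 99 and 106, with an interaction of -2.06 (SE 0.74, adjusted p = 0.0414), likewise not called in 8 of 12 (adjusted p from 0.0073 to 0.0795). In all 4 genes KO-labelled pachytene replicate 1 was the lowest library.

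Lower X-linked genes included some that are not specific to germ cells. Rps4x, a ribosomal protein whose pseudogenes may take fragments, was higher in KO-labelled than in WT libraries at LZ, at 29, 21.5 and 26 against 19.2, 10.8 and 7.17, and lower at pachytene, at 125, 88.6 and 124 against 134, 188 and 178, without overlap at either stage. Its interaction was -1.64 (SE 0.42, adjusted p = 0.0117). Slc38a5, a glutamine transporter, was at 4.45, 8.1 and 10.8 against 59.5, 69.5 and 60.6 at pachytene and had -3.65 (SE 0.66, adjusted p = 0.00494). Tmsb15l, a thymosin-like actin-binding protein, was at 0.00139, 9.95e-04 and 2.71 against 29.7, 31.4 and 24.5 at pachytene and had -3.63 (SE 0.69, adjusted p = 0.00509). The near-zero values of Tmsb15l in 2 of these libraries can be failed estimates, and the third stood at 2.71. Autosomal genes made up 389 of the 538 lower genes. The Y chromosome had 9 tested genes, 2 of them lower on each scale (22.2%, against 3.49% and 5.59% of all genes). Eif2s3y, a translation initiation factor, was at 21.3, 19.9 and 26.3 against 62, 74 and 67.2 at pachytene for KO-labelled against WT, with an interaction of -1.22 (SE 0.33, adjusted p = 0.0134). Ube1y1, a ubiquitin-activating enzyme, had -1.81 (SE 0.55, adjusted p = 0.0221), not called without WT LZ replicate 2 or WT pachytene replicate 1 (adjusted p up to 0.0568).

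For Slc38a5 and Tmsb15l, and for Sct, an autosomal gene with a lower interaction described below, the 100 bases before the start are shown from RefSeq on GRCm38.p6, 5′ to 3′, at chrX:8271281-8271380 on the plus strand and at chrX:136976875-136976974 and chr7:141279134-141279233 on the minus strand. Capitals mark matches to the E box CACGTG, the GC box GGGCGG and the TATA box TATAAA.
Slc38a5: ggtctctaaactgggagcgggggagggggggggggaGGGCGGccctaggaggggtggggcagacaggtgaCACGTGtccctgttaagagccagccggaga
Tmsb15l: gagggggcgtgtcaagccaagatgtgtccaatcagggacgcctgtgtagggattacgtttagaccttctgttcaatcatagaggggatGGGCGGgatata
Sct: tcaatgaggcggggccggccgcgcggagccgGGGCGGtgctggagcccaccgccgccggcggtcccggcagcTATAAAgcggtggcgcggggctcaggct
All 3 windows held the GC box, as did 24.7% of the 32851 windows. The E box of Slc38a5 was found in 3.17% and the TATA box of Sct in 5.56% of them. These are matches of letters, not sites of binding. The 3 genes were limited to those with a single promoter entry and no annotated exon in the window, unlike the 32851. They are examples, and enrichment was not tested.

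Lists of hybrid removal and of meiotic chromosomes differed in how they stood to all genes, of which 34.9% were higher on the spike-in scale with a median of 0.72. The R-loop factors had 57.5% of members higher and a median above that of all genes, while the recombination list, at 41.4%, and the synaptonemal complex and axis list, at 35.3%, were near the share of all genes and had medians below theirs. The list of R-loop factors had a median of 0.99 on the spike-in scale with 23 of 40 higher and 0 lower, and -0.22 on the share scale, the median of all genes, with 0 higher and 1 lower. Rnaseh2a, the catalytic subunit of the other nuclear RNase H, was at 177, 184 and 131 in WT and 71, 58.3 and 41.4 in KO-labelled LZ libraries. At pachytene it was at 758, 793 and 1022 and 2165, 1764 and 989, with replicate 3 of the KO-labelled group inside the WT range. Its interaction was 2.4 (SE 0.41, adjusted p = 0.00493) on the spike-in scale and 1.15 on the share scale, where it was not called (adjusted p = 0.0652). The topoisomerase Top3a had 1.73 and the export factor Thoc6 had 1.47, both called on the spike-in scale. Neither was called under median-ratio scaling or quantile normalisation. The recombination list had a median of 0.54 with 12 higher and 1 lower of 29, and -0.49 on the share scale with 3 lower. Rpa1, which coats single-stranded DNA, had 2.05 (SE 0.41, adjusted p = 0.00545), and Mus81, a nuclease for joint molecules, had 1.59 (SE 0.48, adjusted p = 0.0219), lost in 4 of 12 fits without 1 library (adjusted p from 0.00963 to 0.0623). Its lower member was the X-linked Tex11.

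The synaptonemal complex and axis list had a median of 0.62 on the spike-in scale with 6 higher and 1 lower of 17, and -0.63 on the share scale with 4 lower. Syce1, a central element protein, was at 6874, 6418 and 4738 in KO-labelled against 2706, 3159.7 and 4273 in WT pachytene libraries and at 189.6, 216 and 204 against 304, 468 and 343 at LZ, without overlap at either stage, and had 1.68 (SE 0.32, adjusted p = 0.00509). The ATR and DNA damage list had 0.91, with 12 higher and 0 lower of 24 (50% higher, against 34.9% of all genes). Nbn (1.66), Mre11a (1.49) and Atrip (1.21) were among the higher. The share-scale median of this list was -0.30, and 2 members were lower there. The piRNA list had 0.87, with 15 higher of 24 (62.5%) and 0 lower, and -0.32 with 0 higher and 0 lower on the share scale. Mael, needed for piRNA production, was at 11198, 8893 and 7272 against 4450.1, 4194 and 6360.1 at pachytene and 367, 333 and 388 against 672, 735 and 565 at LZ, apart at both stages, with an interaction of 1.72 (SE 0.31, adjusted p = 0.00493). The tudor proteins Tdrd6 and Tdrd7 had 1.97 and 1.73. The calls of all genes named in this paragraph were lost under median-ratio scaling and quantile normalisation.

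Lists of nuclear genes of the mitochondrion and of translation had medians above the 0.72 of all genes on the spike-in scale. No member was called higher on the share scale. Over all genes 34.9% were higher on the spike-in scale and 5.59% lower on the share scale. The spike-in median rose with level, to 1.26 in the highest of the 5 bins, where 2400 of 3080 genes were higher. These lists were not compared with genes of like level. The oxidative phosphorylation list had a median of 1.15, with 65 of 81 higher and 0 lower. It was -0.100 on the share scale, with 0 higher and 8 lower, and 0.21 under median-ratio scaling. Cox8c, the testis form of a cytochrome oxidase subunit, was at 54903, 43398 and 40137 against 19308, 35498 and 26655 in KO-labelled and WT pachytene libraries and at 1001, 1141 and 1099.5 against 1936, 2673 and 1382 at LZ. The genotypes did not overlap at either stage, with an interaction of 1.63 (SE 0.38, adjusted p = 0.00797). Uqcrc1 of complex III had 1.44. The list for maintenance of mitochondrial DNA, where RNase H1 also acts, had 1.04 with 10 of 21 higher, and -0.16 with 3 lower on the share scale. Its named members were the ligase Lig3 (1.39 (SE 0.40, adjusted p = 0.0177), not called without KO-labelled pachytene replicate 1, adjusted p up to 0.0514), Mterfd1 (1.3) and the RNA polymerase Polrmt (1.34 (SE 0.44, adjusted p = 0.0304), lost in 8 of 12 fits, adjusted p from 0.0137 to 0.0723). Cytosolic ribosomal proteins had 0.98, with 62 higher and 2 lower of 83, and -0.27 on the share scale with 5 lower. Rps27 (2.42) and Rpl26 (2.06) led in size, and like most ribosomal proteins they have pseudogenes that may take fragments. Under median-ratio scaling and quantile normalisation the calls of all genes named in this paragraph were lost.

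The G2/M and metaphase list had 1.18, with 21 higher and 1 lower of 32. Higher were 65.6%, against 34.9% of all genes. On the share scale this list had -0.054, with 0 higher and 2 lower. The kinases Aurkc and Aurka, which act at the meiotic divisions, had 2.48 and 2.14. Both calls were lost under median-ratio scaling and quantile normalisation. Cenpa, the histone of the centromere, was at 4.32, 12.8 and 18.6 in KO-labelled against 76.1, 136 and 82.8 in WT pachytene libraries, without overlap, and at 80.3, 78.1 and 121 against 184, 132 and 123 at LZ. Its interaction was -2.44 (SE 0.57, adjusted p = 0.00827). The replication and S phase list had 1.0 with 21 higher (45.7%) and 3 lower of 46, and -0.23 on the share scale. Chaf1a, a chromatin assembly factor, had 2.04. Mcm2, a subunit of the replicative helicase, had -2.12 (SE 0.65, adjusted p = 0.0224), with KO-labelled pachytene libraries at 0.155, 3.69 and 3.69 against 27.2, 18.2 and 18.8 in WT, and was not called without WT pachytene replicate 1 (adjusted p from 0.0111 to 0.0545 over the 12 fits). Thymidine kinase Tk1 had -1.71 (SE 0.62, adjusted p = 0.0448), lost in 10 of 12 fits (adjusted p from 0.00238 to 0.111).

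Over all genes 34.9% were higher and 3.49% lower on the spike-in scale, with a median of 0.72. Each list in this paragraph had a smaller share of higher members and a lower median. The shares were 19.4% for histones, 13.3% for stress, 23.5% for p53 targets, 9.09% for interferon and 18.2% for glutathione transferases. Histone genes had a median of 0.38 with 7 higher and 0 lower of 36, Hist2h2be (1.95), H2afj (1.32) and Hist3h2a (1.21) the largest. Stress and immediate early genes had 0.16, with 4 higher and 1 lower of 30, and -0.77 on the share scale. Chac1, a stress-induced enzyme that breaks down glutathione, was at 12.9, 14.7 and 14.7 in KO-labelled against 0.943, 3.75 and 1.77 in WT pachytene libraries and overlapped at LZ, an interaction of 2.26 (SE 0.63, adjusted p = 0.0155). Ddit3, a transcription factor of the same response, had 1.8, and the chaperone Dnajb1 had 1.93. The calls of Chac1, Ddit3, Dnajb1, Hist2h2be, H2afj and Hist3h2a were lost under median-ratio scaling and quantile normalisation. That of Chac1 was also lost with a pseudocount of 0.1 (adjusted p = 0.227). The p53 target list had 0.12 with 4 higher and 2 lower of 17. Mdm2, which restrains p53, had 1.34, but fell to 0.42 under median-ratio scaling and 0.046 under quantile normalisation, called under neither. Phlda3 had -1.56 (SE 0.55, adjusted p = 0.0382) and the death receptor Fas -1.25 (SE 0.41, adjusted p = 0.0306), lost in 7 and 6 of 12 fits (highest adjusted p 0.0972 and 0.0657). Their calls were also lost under both of those scalings. Interferon and nucleic acid sensing genes had 0.33, with 2 higher and 1 lower of 22. Dhx58, a regulator of RNA sensing, had 2.12 (SE 0.45, adjusted p = 0.00646), and Mx2 and Oasl2, at values under 7 in every library, had 1.04 and -1.24, lost in 9 and 8 of 12 fits (highest adjusted p 0.0948 and 0.0929). The calls of Dhx58, Mx2 and Oasl2 were lost under median-ratio scaling and quantile normalisation. Glutathione transferases had -0.49 on the spike-in and -1.28 on the share scale, with 4 higher and 6 lower of 22 on the first. Gstt3 (2.3) and Gsto2 (2.07) were higher and Gstp2 (-2.15) lower.

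**Figure D4:**
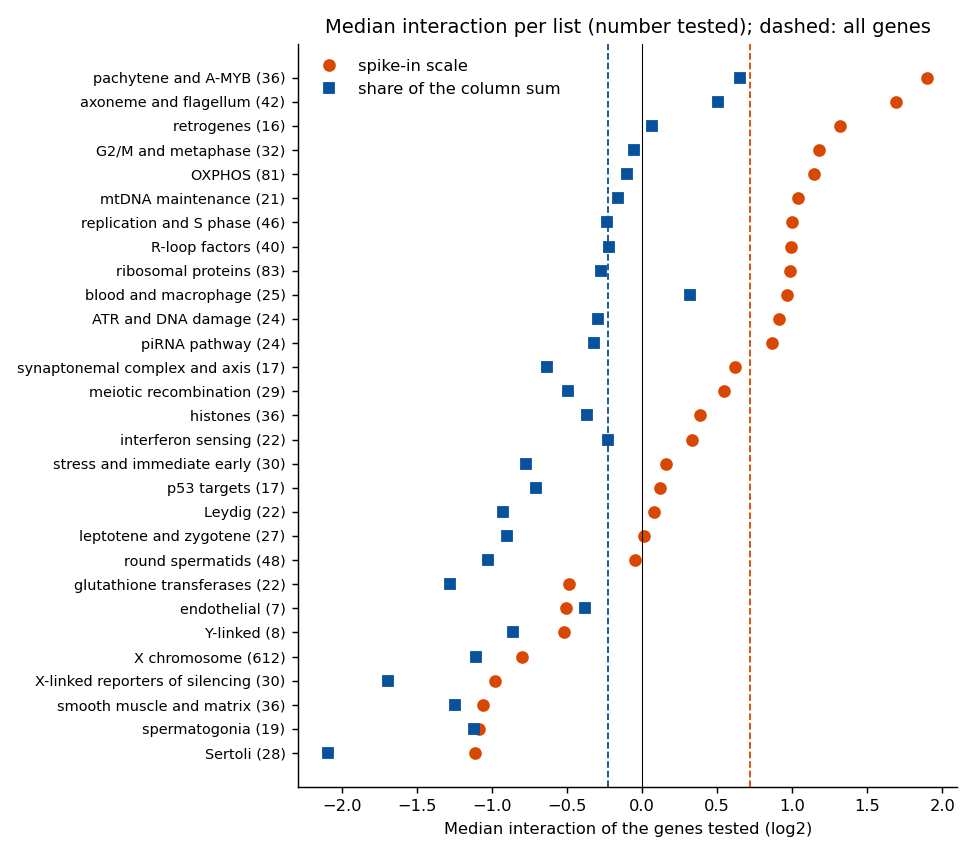
Median interaction of each gene list and of the X chromosome (log2, number of genes tested in brackets) on the spike-in scale (circles) and the share scale (squares), with the medians of all genes at 0.72 and -0.22 as dashed lines. The pachytene and A-MYB list is the highest on both scales and the Sertoli list the lowest on both.

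Among markers of somatic cells of the testis, the Sertoli, smooth muscle and endothelial lists had negative medians on the spike-in and share scales and under median-ratio scaling and quantile normalisation. The Sertoli list, of the cells that nurse the germ line, had a median of -1.11 on the spike-in scale with 1 higher and 6 lower of 28, and of -2.09 on the share scale with 17 lower. It was -1.92 under median-ratio scaling and -1.95 under quantile normalisation. Lower were 21.4% and 60.7% of members on the spike-in and share scales, against 3.49% and 5.59% of all genes. Cst9, a cystatin of Sertoli cells, was at 646, 426 and 749 in KO-labelled against 1908, 2427 and 1861 in WT pachytene libraries, without overlap, and overlapped at LZ, an interaction of -1.9 (SE 0.45, adjusted p = 0.00845). Shbg, which binds sex steroids, was higher in KO-labelled libraries at LZ (5.39, 10.3 and 11.3 against 3.91, 1.01 and 2.95) and lower at pachytene (6.1, 3.7 and 3.88 against 9.9, 8.08 and 7.37), without overlap at either stage, an interaction of -2.29 (SE 0.51, adjusted p = 0.00718). Trf, transferrin, went the other way at 2.18 (SE 0.53, adjusted p = 0.00924). The list took 0.321% to 0.464% of the sum in WT LZ, 0.42% to 0.851% in KO-labelled LZ, 0.214% to 0.279% in WT pachytene and 0.0566% to 0.0893% in KO-labelled pachytene libraries. Of its 29 members in the table, at most 1 was at 0 in any library; the defining markers Sox9 and Wt1 were above 0 in every library, and Amh was at 0 in 2. The part of these cells in the interaction of other genes was not tested.

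The smooth muscle and matrix list, of the peritubular cells around the tubules, had medians of -1.06 on the spike-in scale and -1.24 on the share scale. It had 13 and 12 lower of 36 and 1 and 0 higher. Of this list 36.1% and 33.3% were lower, against 3.49% and 5.59% of all genes. It took 0.0257% to 0.0266% of the sum in WT LZ, 0.0287% to 0.0498% in KO-labelled LZ, 0.0528% to 0.0604% in WT pachytene and 0.0129% to 0.0187% in KO-labelled pachytene libraries, so that the genotypes did not overlap at either stage and changed order between them. Of its 38 members, 1 to 5 were at 0 in WT LZ, 3 to 7 in KO-labelled LZ, 0 to 1 in WT pachytene and 1 to 3 in KO-labelled pachytene libraries. Among the defining markers Acta2 and Myh11 were above 0 in every library and Cnn1 was at 0 in 2. Acta2, smooth muscle actin, was at 0.358, 0.452 and 0.0382 in WT LZ and 0.644, 15.1 and 2.87 in KO-labelled LZ libraries, where replicate 2 stood far above the rest. At pachytene it was at 106, 224 and 149.7 in WT and 27.3, 19.1 and 30.8 in KO-labelled libraries. The genotypes did not overlap at either stage and changed order, with an interaction of -4.43 (SE 0.85, adjusted p = 0.00509) on the spike-in and -5.52 (SE 0.97, adjusted p = 0.0108) on the share scale. Myl9, a myosin light chain, was at 59, 45.6 and 54.7 in KO-labelled and 259, 406 and 306 in WT pachytene libraries, with -2.76 (SE 0.58, adjusted p = 0.00624). Mgp, a matrix protein that limits calcification, had -2.98 (SE 0.79, adjusted p = 0.0129). All 3 kept their spike-in calls in each fit without 1 library, but that of Mgp was lost with a pseudocount of 0.1 (adjusted p = 0.0605), under median-ratio scaling (adjusted p = 0.0571) and under quantile normalisation (adjusted p = 0.0883).

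Leydig cell genes, for the synthesis of androgens, had a median of 0.080 on the spike-in scale with 3 higher and 0 lower of 22, and -0.93 on the share scale with 2 lower. Over all genes 34.9% were higher and 3.49% lower on the spike-in scale. Higher were 13.6% of this list and 8% of the blood and macrophage list. Fdx1 (1.28 (SE 0.33, adjusted p = 0.0109)) and Cyb5r3 (1.18 (SE 0.33, adjusted p = 0.016)) are redox enzymes, and they turned to -0.055 and -0.021 under quantile normalisation. Lhcgr, the receptor of luteinizing hormone, had 1.62 (SE 0.56, adjusted p = 0.0372), lost in 10 of 12 fits (adjusted p from 0.00579 to 0.0925). The defining genes Insl3 and Star were above 0 in every library, Cyp17a1 was at 0 in 1, and the list took 0.0416% to 0.053%, 0.0526% to 0.0701%, 0.15% to 0.335% and 0.11% to 0.173% of the sum at LZ in WT and KO-labelled libraries and at pachytene in WT and KO-labelled ones. The blood and macrophage list was at 0.96 with 2 higher and 0 lower of 25, which were Ccl2 (2.4 (SE 0.79, adjusted p = 0.0298)) and Ptprc (1.11 (SE 0.39, adjusted p = 0.0398)), lost in 4 and 9 of 12 fits (highest adjusted p 0.0579 and 0.0931). It took 0.00659% to 0.0277%, 0.00726% to 0.00808%, 0.0237% to 0.0911% and 0.0316% to 0.0597% of the sum in the same order. The endothelial list had 7 tested genes, a median of -0.50, 1 higher and 2 lower, among which Cd34, a surface protein of vessel lining, had -1.53 (SE 0.43, adjusted p = 0.0157). Egfl7 (-2.02 (SE 0.62, adjusted p = 0.0229)) and Sox17 (1.22 (SE 0.44, adjusted p = 0.0447)) lost their calls in 3 and 9 of 12 fits (highest adjusted p 0.0621 and 0.116).

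The 8 lowest interactions on the spike-in scale among named genes at a mean of at least 5 in their highest group were of mixed kind. Rnu11, the U11 RNA of the minor spliceosome, stood at 36.7, 0 and 0 in WT LZ, 22, 47 and 26 in KO-labelled LZ, 126, 99.98 and 209.96 in WT pachytene and 0, 0 and 183 in KO-labelled pachytene libraries. It is a short RNA without a poly(A) tail, 4 of its 12 values were listed at 0, and its interaction of -7.82 (SE 2.39, adjusted p = 0.0225) lost its call in 3 of the 12 fits without 1 library (adjusted p from 0.00207 to 0.0609). Rnaset2a, a lysosomal ribonuclease with a near-identical copy, Rnaset2b, between which fragments can be split, was at 0.00169, 10.3 and 20.5 in WT and 9.34, 0.0794 and 0.00921 in KO-labelled pachytene libraries. These overlapped, and its interaction of -5.37 (SE 1.43, adjusted p = 0.0132) is uncertain. Sct, the hormone secretin, was at 29.1, 12.9 and 35.5 in KO-labelled against 131, 211 and 128 in WT pachytene libraries without overlap, an interaction of -3.42 (SE 0.98, adjusted p = 0.0173). Rmnd1, a mitochondrial translation factor, was at 8.07e-04, 5.04 and 7.25e-04 against 33.9, 30.9 and 27.5 and had -3.26 (SE 0.80, adjusted p = 0.00946), with the near-zero values of 2 libraries under the same doubt as those of Tmsb15l. Upp1, a uridine phosphorylase, was at 0.465, 3.18 and 1.33 against 30.6, 26.1 and 24 and had -3.21 (SE 0.66, adjusted p = 0.00566). Acta2, Slc38a5 and Tmsb15l, given above, complete the 8. The share-scale interactions of Sct (-4.09), Upp1 (-2.69) and Rnu11 (-7.66) were not called (adjusted p = 0.0719, 0.0545 and 0.0536).

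**Figure D5:**
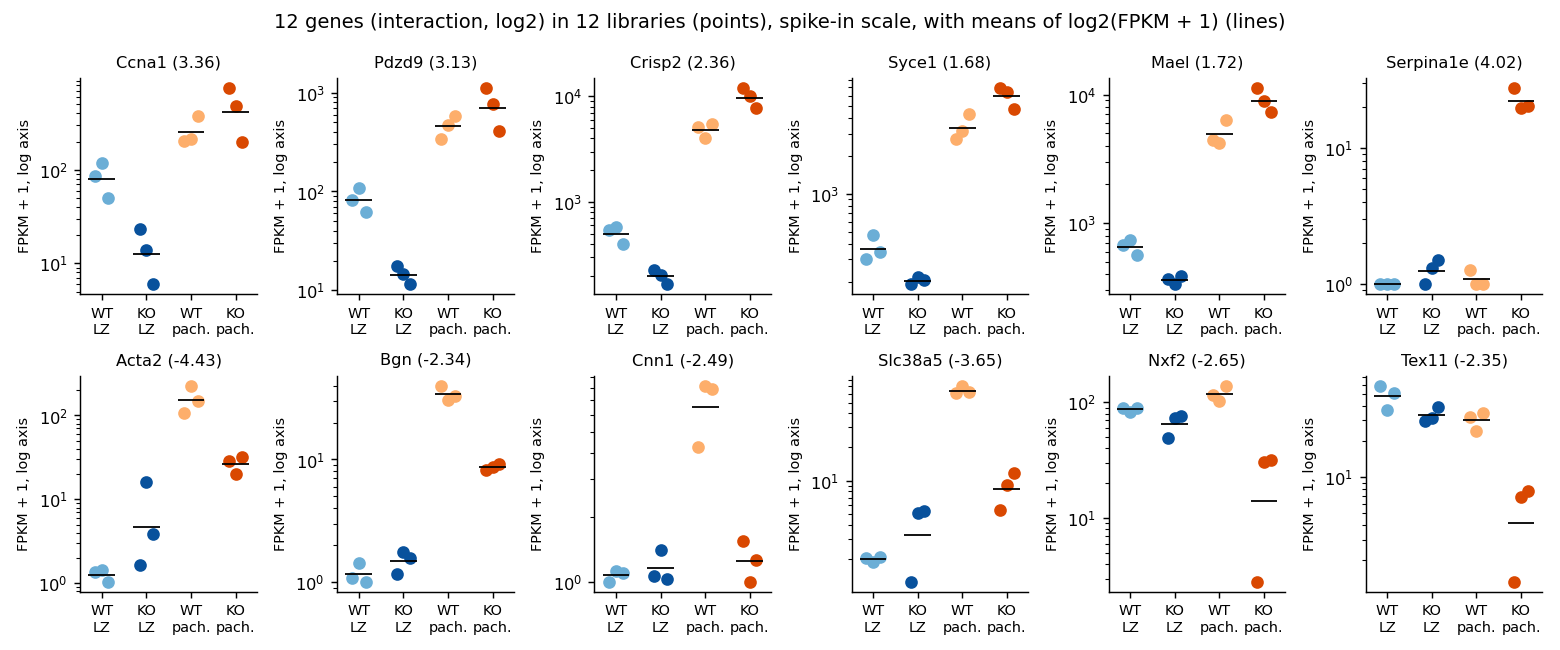
Values of 12 genes in each library (points, replicates 1 to 3 from left to right) as spike-in-scaled FPKM + 1 on a log axis, with the group means of log2(FPKM + 1) as lines and the interaction in brackets; KO stands for KO-labelled. In the upper row the KO-labelled means lie below WT at LZ and above WT at pachytene except for Serpina1e, which is near the floor outside KO-labelled pachytene; in the lower row every KO-labelled library lies below the WT libraries at pachytene.

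The highest share-scale interactions among named genes were Agr3 (2.0 (SE 0.48, adjusted p = 0.0336)), Rfx8, Pdzd9, Clec4g (1.75 (SE 0.47, adjusted p = 0.0483)), Zbtb5 (1.6 (SE 0.32, adjusted p = 0.0171)), Klhl32 (1.55 (SE 0.39, adjusted p = 0.0379)), Tmem151b (1.53 (SE 0.41, adjusted p = 0.0487)) and Acrbp (1.51 (SE 0.39, adjusted p = 0.0423)). Agr3, of the disulfide isomerase family, was at 5.5, 8.91 and 3.33 in WT and 0.275, 0 and 0.217 in KO-labelled LZ libraries on the spike-in scale, and at 33, 27.5 and 42.8 and 59.7, 26.2 and 17.5 at pachytene. The groups were apart at LZ and overlapped at pachytene, and the same held for Klhl32, an adaptor of ubiquitin ligases. Zbtb5, a zinc finger repressor, was apart at both stages on the spike-in scale, at 1.58, 1.25 and 1.45 against 8.02, 8.35 and 4.92 at LZ and 72.1, 63 and 41.9 against 31.8, 24 and 40.5 at pachytene for KO-labelled against WT. The share-scale calls depended on single libraries: the call was lost in 7 of 12 fits without 1 library for Agr3, 5 for Rfx8, 1 for Pdzd9, 10 for Clec4g, 3 for Zbtb5, 8 for Klhl32, 9 for Tmem151b and 9 for Acrbp, with a highest adjusted p of 0.143 among them.

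The lowest on the share scale were Rnaset2a (-5.94), Acta2 (-5.52), Slc38a5 (-4.07), Mgp (-3.98), Myl9 (-3.9), Sdc4 (-3.78), Nanos3 (-3.53) and Fhl2 (-3.49). Sdc4, a cell surface proteoglycan, was at 20.3, 11.9 and 14.6 in WT LZ and 21, 31.5 and 28 in KO-labelled LZ libraries on the spike-in scale, and at 137, 77 and 86.5 in WT pachytene and 14.8, 36.3 and 23.8 in KO-labelled pachytene. The genotypes did not overlap at either stage and changed order, with an interaction of -2.76 (SE 0.47, adjusted p = 0.00493) on the spike-in and -3.78 (SE 0.49, adjusted p = 0.00721) on the share scale. Fhl2, a LIM domain cofactor of muscle and stroma, was at 4.32, 4.51 and 11.3 in KO-labelled against 19.7, 41 and 30.05 in WT pachytene libraries, without overlap, and had -2.95 (SE 0.56, adjusted p = 0.00509) on the spike-in scale. The share-scale call of Mgp was lost in 8 of 12 fits (adjusted p from 0.00253 to 0.104), and that of Slc38a5 without KO-labelled pachytene replicate 1 (adjusted p = 0.0506).

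The number of genes at a value of at least 1 was lower in KO-labelled than in WT libraries at both stages, without overlap. It was 12012 to 12963 in WT LZ, 11146 to 11808 in KO-labelled LZ, 14902 to 15290 in WT pachytene and 14220 to 14460 in KO-labelled pachytene libraries. The interaction was 128.7 genes by the same exact permutation test (p = 0.855), -96.7 at a minimum of 0.1 and 682 at a minimum of 5. Exchanging genotypes carries their difference at each stage into the reference values. This p therefore does not set the interaction against the spread between replicates alone. With a minimum of 1 part per 1000000 of the sum it was -1435 (exact permutation p = 0.05).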

How the data were processed

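Polyadenylated RNA of sorted mouse spermatocytes was sequenced from amplified cDNA in 12 paired-end libraries, 3 in each of 4 groups taken from the labels. The deposited values are FPKM per gene, scaled by the authors with ERCC spike-in RNA. TopHat2 2.1.1, Cufflinks 2.2.1 and the build mm9 are named in the submitters' processing notes; the annotation and how the scaling was computed are not given in the sources used here. The table held 23235 genes and 4 columns without a name, which were not used. The depth per library is unknown, so intervals from counts are not given.

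Genes that reached 1 in no fewer than 3 libraries (15400) were tested on log2(value + 1). All 12 libraries entered a model with a mean for each group in limma 3.58.1 under R 4.3.3 with a trend of variance on level, and the interaction (two-sided) was called at a p under 0.05 after Benjamini-Hochberg adjustment over all genes. The fit was repeated on parts per 1000000 of each column sum, and was tested on simulated data. Column sums and gene numbers were compared by exact permutation within stages. Chromosomes of 22980 genes came by symbol from RefSeq on GRCm38.p6.

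The members and the gene lists were chosen with earlier results of these data known. Named were Rnaseh1, Crisp2, Bgn, Cnn1 and Mylk3, then on each scale the 8 highest and 8 lowest interactions among called genes whose highest group averaged 5 or more, without predicted or unnamed models, and up to 3 called members of each list. Serpina1d is outside that rule and was chosen after its values were seen, as were Prm1 and the defining markers of cell types. Other pseudocounts, filters, scalings, a replicate block and fits without each library were tried as alternatives. Of the named genes, 1 is not reported here.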

Additional observations from a re-analysis of the deposited data

Results flagged for a closer look

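The interaction is itself a test of whether the difference between genotypes was the same at LZ and at pachytene, so each called result is listed here because the 2 stages differed by that test. On the spike-in scale 5381 genes were higher and 538 lower, on the share scale 91 were higher and 861 lower, and the interaction of the log2 column sum was 1.256. Of the 103 genes named by the rule, 102 were called on the spike-in scale.

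Interactions on the spike-in scale, in log2 units and in brackets, follow from the most positive down. They were Serpina1e (4.02), Ccna1 (3.36), Tcte1 (3.26), Mxra8 (3.21), Pdzd9 (3.13), Rfx8 (3.09), Rhcg (3.09), Aqp9 (3.0), Dnaic2 (2.78), Acrbp (2.75), Mylk3 (2.73), Tekt3 (2.73), Zpbp2 (2.66), Pabpc2 (2.64) and Tex22 (2.62). Next came Zbtb5 (2.56), Tmem151b (2.53), Pabpc6 (2.49), Aurkc (2.48), Clec4g (2.42), Rps27 (2.42), Ccl2 (2.4), Rnaseh2a (2.4), Ppp3r2 (2.38), Crisp2 (2.36), Agr3 (2.34), Gstt3 (2.3), Chac1 (2.26), Trf (2.18) and Aurka (2.14). After these stood Dhx58 (2.12), Spesp1 (2.1), Klhl32 (2.09), Gsto2 (2.07), Rpl26 (2.06), Rpa1 (2.05), Chaf1a (2.04), Tdrd6 (1.97), Hist2h2be (1.95), Dnajb1 (1.93), Ddit3 (1.8), Tdrd7 (1.73), Top3a (1.73), Mael (1.72) and Syce1 (1.68). Further down were Nbn (1.66), Cox8c (1.63), Lhcgr (1.62), Mus81 (1.59), Mre11a (1.49), Thoc6 (1.47), Uqcrc1 (1.44), Lig3 (1.39), Mdm2 (1.34), Polrmt (1.34), H2afj (1.32), Mterfd1 (1.3), Fdx1 (1.28), Sox17 (1.22) and Atrip (1.21). Smaller values were those of Hist3h2a (1.21), Stag3 (1.18), Cyb5r3 (1.18), Ptprc (1.11) and Mx2 (1.04).

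From the most negative up, on the same scale, the values were those of Rnu11 (-7.82), Rnaset2a (-5.37), Acta2 (-4.43), Slc38a5 (-3.65), Tmsb15l (-3.63), Sct (-3.42), Rmnd1 (-3.26), Upp1 (-3.21), Rhox10 (-3.07), Mgp (-2.98), Fhl2 (-2.95), Nanos3 (-2.92), Myl9 (-2.76), Sdc4 (-2.76) and Nxf2 (-2.65). Closer to 0 lay Cnn1 (-2.49), Tktl1 (-2.47), Cenpa (-2.44), Tex11 (-2.35), Bgn (-2.34), Dmrt1 (-2.3), Shbg (-2.29), Gstp2 (-2.15), Mcm2 (-2.12), Taf7l (-2.06), Egfl7 (-2.02), Cst9 (-1.9), Ube1y1 (-1.81), Tk1 (-1.71) and Rps4x (-1.64). Then followed Phlda3 (-1.56), Cd34 (-1.53), Rec8 (-1.44), Fas (-1.25), Oasl2 (-1.24) and Eif2s3y (-1.22).

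The 22 genes listed for the share scale had these interactions. Higher were Agr3 (2.0), Rfx8 (1.93), Pdzd9 (1.92), Clec4g (1.75), Serpina1e (1.62), Zbtb5 (1.6), Klhl32 (1.55), Tmem151b (1.53), Acrbp (1.51) and Crisp2 (1.1). Lower were Rnaset2a (-5.94), Acta2 (-5.52), Slc38a5 (-4.07), Mgp (-3.98), Myl9 (-3.9), Sdc4 (-3.78), Nanos3 (-3.53), Fhl2 (-3.49), Tmsb15l (-2.82), Bgn (-2.77), Rmnd1 (-2.6) and Cnn1 (-1.48).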

How the results depend on the processing

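Under median-ratio scaling and quantile normalisation the genes higher on the spike-in scale numbered 365 and 114, and quantile normalisation gave 262 lower. The median of all genes on that scale was 0.37 with no filter, 0.49 with a pseudocount of 5, 0.91 with a filter of 5 and 0.051 under quantile normalisation, and reversed to -0.0030 under median-ratio scaling. On the share scale a pseudocount of 5 gave 40 higher and 555 lower, and no filter gave 45 higher. The X-linked minus autosomal median was negative under every alternative run: on the spike-in scale -1.92 with a pseudocount of 0.1, -1.01 with 5, -0.96 with no filter, -1.87 with a filter of 5, -1.18 under median-ratio scaling and -1.04 under quantile normalisation, and on the share scale -1.67, -0.36, -0.59 and -1.31 for the first 4. The interaction of the number of genes at 1 or above reversed to -96.7 at a minimum of 0.1 and to -1435 on the share scale. Rnaseh1 reversed to -0.070 under median-ratio scaling and, under quantile normalisation, to -0.14, with Stag3 (-0.12), Fdx1 (-0.055) and Cyb5r3 (-0.021). The cause of these changes was not tested.

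Leaving out 1 library at a time gave 3397 to 5917 higher and 332 to 719 lower genes on the spike-in scale, and 8 to 494 higher and 304 to 1317 lower on the share scale. The spike-in counts moved by over 1.5 times without KO-labelled pachytene replicate 1 (3397 and 352) and WT LZ replicate 2 (332 lower). On the share scale only WT LZ replicate 1, KO-labelled LZ replicate 2 and KO-labelled pachytene replicate 3 left both counts within 1.5 times. The medians were 0.617 to 0.812 and -0.304 to -0.169, the X-linked minus autosomal medians -1.77 to -1.47 and -0.999 to -0.837, the log2 sum 1.141 to 1.412 and the number of genes -121.0 to 354.5. Of 102 named genes called on the spike-in scale, 79 were called in all 12 of these fits, as were 17 of 39 on the share scale. Of those 102, 18 lost their call with a pseudocount of 0.1 and 52 under median-ratio scaling, and under quantile normalisation 72 did and 3 reversed.

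Whether the replicate numbers pair the samples is not settled, and the main fit did not include them. Of 18 same-numbered pairs 7 had a correlation of deviations over 0.1 (range -0.167 to 0.259). Pairs with different numbers ranged from -0.257 to 0.168. With the number as a replicate block the spike-in scale gave 4900 higher and 539 lower genes, and the share scale 87 and 830. Depth is unknown, so its part in low values cannot be given.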
